A study of Mus musculus with 10 samples.

Results

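Interferon-stimulated genes are the genes that a cell switches on when it senses an interferon, and 40 of them were followed by name among the 46517 genes counted. The 40 were taken from a list of gene symbols covering the transcription factors, sensors, antiviral effectors and modifiers of the response, and all 40 were found in the count tables. This list and the other gene lists below were chosen with earlier results of these data known. RNA was sequenced from malignant peripheral nerve sheath tumours (MPNST), sarcomas of the Schwann cell lineage, grown in mice as 5 allograft models lettered A to E. Each model gave 1 library of GFP+ tumour cells, which express the CGD transgene, and 1 library of GFP- tumour cells, which do not. All 10 libraries came from freshly dissociated tumours from which wild-type cells and dead cells had been gated out by flow cytometry. The sources used here do not expand CGD and do not give the strain, the driver mutations, the age of the hosts or the number of animals behind each model. The p-values measure the spread between these 5 pairs.

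Type I interferons bind the receptor made of IFNAR1 and IFNAR2, whose kinases JAK1 and TYK2 phosphorylate STAT proteins. STAT2 and IRF9 are subunits of the ISGF3 complex that follows, which binds the interferon-stimulated response element in the promoters of the induced genes. Interferon gamma acts through its own receptor and the gamma-activated sequence in its target genes. Many tumours keep a low, steady expression of the induced genes in the absence of infection.

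The promoters of the 40 genes are shown first, because a shared promoter element is the textbook feature of such genes. RefSeq promoter windows of 300 bases (250 before to 50 after the start, build GRCm38.p6) were at hand for 30 of the 40 genes, in 34 windows. The core of the interferon-stimulated response element (GAAA, any 2 bases, GAAA) was searched on both strands, so that TTTC, any 2 bases, TTTC counts as a match, and was found for 16 of the 30 genes (53.3%), against 3.99% of the 27025 genes in the promoter table. The gamma-activated sequence (TTC, any 3 bases, GAA), which reads the same on both strands, was found for 8 of the 30 (26.7%), against 9.55% of all genes in that table. In 24 windows of the whole table a match of one motif overlapped a match of the other. A match is a description of the letters and not a measured site. The matches below belong to 8 of the genes described in the results. Each is read 5′ to 3′ on the strand of its gene, with 10 flanking bases in lower case and the matched core in capitals. Bst2, Isg15, Oas3, Ifitm2 and Ifitm3 carry the GAAA form of the core on the gene's own strand, and Ifit1, Ifit3 and Stat2 carry the TTTC form.
Ifit3, chr19:34583363-34583392, plus strand, 156 bases before the start: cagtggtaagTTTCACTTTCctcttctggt
Ifit3, chr19:34583397-34583426, plus strand, 122 bases before the start: tttaagtctgTTTCAGTTTCtactttcctc
Ifit1, chr19:34640775-34640804, plus strand, 104 bases before the start: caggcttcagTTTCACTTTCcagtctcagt
Ifit1, chr19:34640794-34640823, plus strand, 85 bases before the start: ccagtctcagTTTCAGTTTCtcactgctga
Stat2, chr10:128270266-128270295, plus strand, 222 bases before the start: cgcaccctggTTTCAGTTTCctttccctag
Isg15, chr4:156200865-156200906, minus strand, 78 bases before the start, 3 overlapping matches: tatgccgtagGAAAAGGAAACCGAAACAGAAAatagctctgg
Bst2, chr8:71537577-71537612, minus strand, 130 bases before the start, 2 overlapping matches: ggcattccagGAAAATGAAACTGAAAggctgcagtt
Oas3, chr5:120777715-120777744, minus strand, 75 bases before the start: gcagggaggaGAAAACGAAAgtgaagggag
Ifitm2, chr7:140955988-140956017, minus strand, 46 bases before the start: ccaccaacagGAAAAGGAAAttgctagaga
Ifitm3, chr7:141010723-141010752, minus strand, 2 bases after the start: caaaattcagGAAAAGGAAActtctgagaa
Ifitm3, chr7:141010706-141010735, minus strand, 19 bases after the start: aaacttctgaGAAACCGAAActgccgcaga

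The whole upstream stretch is shown for Ifit3, which holds 2 matches, and for Ifitm1, which has the smallest p of the 40 genes in the comparison described later and no match in its window. Each is the 250 bases before the RefSeq start, on the plus strand, with the core in capitals. The Ifitm1 stretch lies inside the gene as GENCODE vM21 places it (chr7:140967221-140969825). The bases before that earlier start were not searched.
Ifit3, chr19:34583279-34583528: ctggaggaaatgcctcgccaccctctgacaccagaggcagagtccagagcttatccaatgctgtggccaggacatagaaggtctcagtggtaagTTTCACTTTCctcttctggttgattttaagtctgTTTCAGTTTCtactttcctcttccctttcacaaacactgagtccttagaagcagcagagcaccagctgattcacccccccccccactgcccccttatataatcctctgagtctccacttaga
Ifitm1, chr7:140967826-140968075: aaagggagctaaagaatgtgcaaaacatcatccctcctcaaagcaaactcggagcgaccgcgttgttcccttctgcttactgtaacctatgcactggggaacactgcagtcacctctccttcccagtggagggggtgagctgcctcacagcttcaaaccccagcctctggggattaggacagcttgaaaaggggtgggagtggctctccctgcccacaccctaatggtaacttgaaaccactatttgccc

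Libraries held 15978673 to 22082207 reads in genes. Levels are given as reads per 1e6 gene reads (CPM), and levels of different genes are compared only as TPM, which divide by exon length. The leukocyte gene Ptprc was at or below 0.453 CPM and the endothelial gene Pecam1 at or below 1.31 CPM in every library. The summed level of 22 leukocyte markers ranged over 22.8 to 104 CPM in GFP+ cells and 15.7 to 84.9 CPM in GFP- cells (higher in GFP+ in 3 of 5 pairs, exact two-sided sign-flip p = 0.75), and most of the high values of model C lay in Cd14 and Flt3. The Schwann lineage regulator Sox10, a check of the tumour label, had 0.111, 17.1, 52.6, 112 and 0.434 CPM in GFP+ cells of models A to E and 0.0514, 1.63, 7.65, 3.69 and 0 CPM in GFP- cells, so that it was near absent in models A and E. The 10 Schwann lineage markers together reached 187 ± 132 CPM in the GFP+ libraries, against 73.9 ± 41.7 CPM in the GFP- libraries (SD over 5 libraries), with GFP+ the higher in 5 of 5 pairs (exact two-sided sign-flip test, p = 0.0625, which is the lowest value possible with 5 pairs). The 9 fibroblast and pericyte markers, none of them at 0, summed to 18848 to 34969 CPM in GFP+ cells and 19717 to 39716 CPM in GFP- cells. Of these 9, 8 had negative fitted log2 differences, GFP+ minus GFP- (88.9%, median -0.27, and medians of -0.44 in pair B and -0.71 in pair D), 0 were called by edgeR, and Pdgfra was lower in GFP+ cells in 5 of 5 pairs. Whether the Schwann lineage or the fibroblast and pericyte markers play a part in the differences of the interferon-stimulated genes was not tested. In sorted populations a lower level can mean fewer cells that express a gene or less RNA per cell, and these cannot be told apart here.

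The interferon-stimulated genes were expressed in all 5 tumour models. Of the 40, 38 passed the filter on low counts. Their median TPM over the 10 libraries spanned 0.329 for Oas3 to 2161 for Ifitm2 among those 38. Ifitm2 and Ifitm3, membrane proteins that block virus entry at endosomes, stood far above the rest at 2161 and 1124 TPM. After them came Bst2 at 162 TPM, Isg15 at 139 TPM, Gbp2 at 124 TPM and Irf1 at 105 TPM. At the low end were the 2'-5' oligoadenylate synthetases Oas3, Oas2 and Oas1a, enzymes that make the activator of RNase L, at 0.329, 0.212 and 0.210 TPM. Oas1a and Oas2 did not pass the filter. Oas1a had 0.0556, 1.86, 0.163, 0.823 and 0.0483 CPM in GFP+ cells of models A to E, against 0.0514, 3.17, 0.0550, 2.13 and 0.0542 CPM in GFP- cells. Oas2 had 0.167, 1.33, 0.0543, 1.43 and 0.338 CPM in GFP+ cells, against 0.206, 0.725, 0.110, 4.19 and 0 CPM in GFP- cells. For both, models B and D were above models A, C and E in each population.

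**Figure D1:**
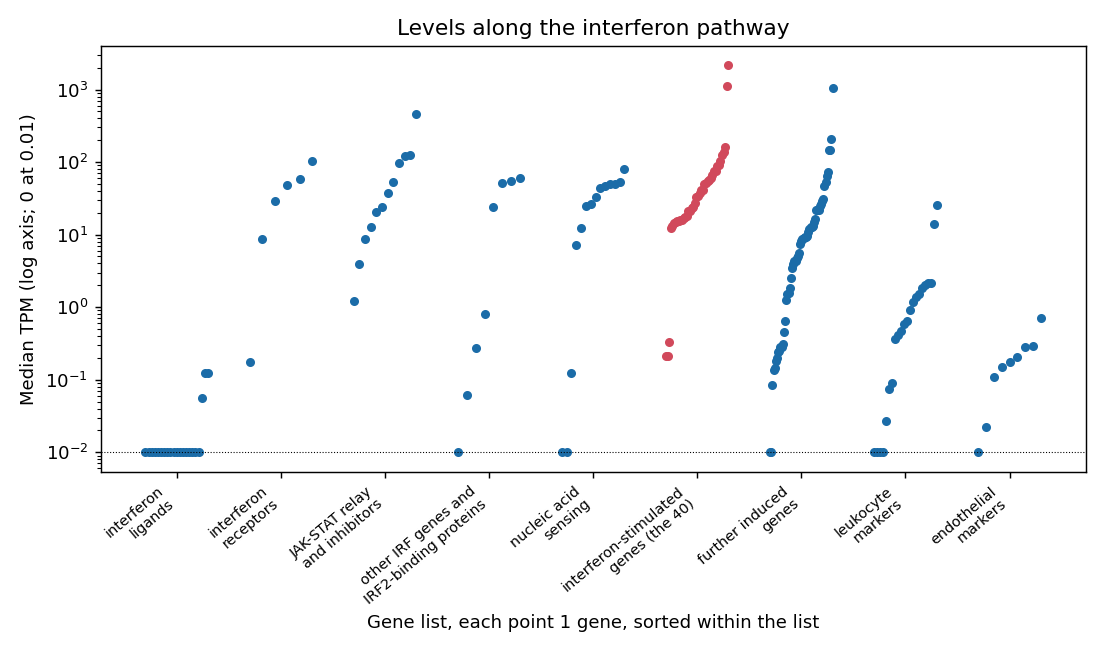
Median TPM over the 10 libraries (log axis, genes at 0 drawn at 0.01) for each gene of the interferon pathway lists and of the leukocyte and endothelial marker lists; each point is 1 gene, and the 40 interferon-stimulated genes are in red. Ifitm2 and Ifitm3 stand highest of the 40 at 2161 and 1124 TPM, the interferon ligands lie at or near 0, and most receptor genes and the relay genes are expressed.

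Upstream of the induced genes, transcripts of the interferons themselves were barely detected. Of 21 interferon ligand genes, 12 had no read in any library, 0 passed the filter, and the whole list summed to 1 to 6 reads per library. Of 6 receptor genes on the list, 5 passed the filter. Ifnar1 had 92.1, 57.3, 75.9, 71.3 and 62.2 CPM in GFP+ cells of models A to E, against 89.3, 99.6, 84.5, 91.9 and 69.7 CPM in GFP- cells. Ifnar2 had 33.4, 16.9, 23.7, 25.6 and 23.1 CPM in GFP+ cells, against 32.3, 34.0, 27.4, 33.4 and 24.9 CPM in GFP- cells. Both receptor chains had the lower level in GFP+ cells of models B to E, most of all in pair B (log2 differences of -0.86 and -1.07), and their ranges overlapped between the populations. The fitted log2 difference (GFP+ minus GFP-) was -0.32 (SE 0.13) for Ifnar1 and -0.36 (SE 0.16) for Ifnar2, at adjusted p of 0.524 and 0.568 by edgeR's quasi-likelihood test. The interferon gamma receptor chains Ifngr1 and Ifngr2 had log2 differences of -0.14 (SE 0.10) and -0.22 (SE 0.11), and all 5 receptor genes tested had negative values.

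Comparing GFP+ with GFP- cells within each model asks whether tumour cells that express the transgene differ in interferon response from those that do not. By edgeR's quasi-likelihood test with the tumour model as a block and Benjamini-Hochberg adjustment over 13986 genes, 0 of the 38 tested interferon-stimulated genes passed an adjusted p of 0.05, as did 0.0% of all tested genes. At an unadjusted p under 0.05, 17 of the 38 were lower in GFP+ cells (44.7%), where 3.49% of all genes were, and 0 were higher, where 5.50% of all genes were. The list was chosen with earlier results known, and its genes share the same 5 pairs. The shares here and below therefore describe the list and do not test it. DESeq2 called 3 of the 38, all lower in GFP+ cells, beside 190 genes in all (1.36%). By DESeq2 these were Ifitm1 (adjusted p = 0.000409), Mx1 (adjusted p = 0.0170) and Ifitm2 (adjusted p = 0.0438), and for each of the 3 the adjusted p over all alternatives reached 1.0, in the fit without the block.

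The fitted log2 difference was negative for 35 of the 38 genes (92.1%, against 50.7% of all genes), with a median of -0.31 against -0.0028 over all genes. The 3 positive ones were the transcription factor Irf1 (0.11, SE 0.16), the ubiquitin ligase Trim25 (0.03, SE 0.07) and Ifi27 (0.11, SE 0.39), and scaling by library totals made Rsad2 and Samd9l positive as well, leaving 33 of 38 negative. By pair, 13 of the 38 had less RNA in GFP+ cells in 5 of 5 pairs (34.2%, against 4.66% of all genes), and 0 were higher in 5 of 5 (5.11% of all genes). The 17 genes at an unadjusted p under 0.05 in either direction (44.7%, against 8.99% of all genes) became 9 of 38 when pair B was left out (23.7%, against 5.69%), 11 of 40 without pair C (27.5%, against 9.71%) and 11 of 38 without pair D (28.9%, against 5.73%). They became 20 of 40 without pair A (against 1477 of all 14095 genes) and 23 of 40 without pair E (57.5%, against 7.82%), since Oas1a and Oas2 passed the filter when pair A, C or E was left out. The summed level of the 40 genes was 2033 ± 326 CPM in the GFP+ libraries, against 2427 ± 537 CPM in the GFP- libraries (SD over 5 libraries). This sum was lower in GFP+ cells in every pair, by a log2 difference of -0.01 in pair E to -0.39 in pair B. In pair E it rested on Ifitm1, Ifitm2, Ifitm3 and Bst2. Those 4 genes summed to 614.29 CPM (GFP+) against 709.87 (GFP-), where all 40 gave 2057.1 against 2073.5. The remaining genes together were therefore higher in GFP+ cells of pair E, and lower in those of pairs A to D.

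**Figure D2:**
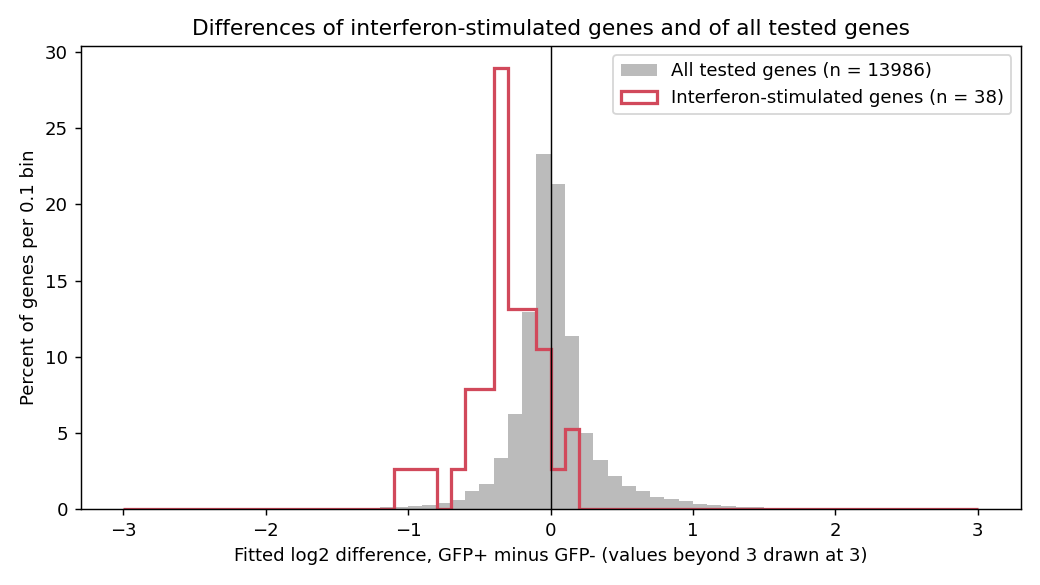
Percent of genes in bins of the fitted log2 difference, GFP+ minus GFP-, for the 38 tested interferon-stimulated genes (red line) and all 13986 tested genes (grey). The red line lies mostly left of 0, with a median of -0.31, while the grey bars centre on 0, with a median of -0.0028.

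The pairs did not contribute alike. Pair B had 35 of 38 genes lower in GFP+ cells (47.4% of all genes), with a median log2 difference of -0.44. Pair C had 36 of 38 (51.3% of all genes), with a median of -0.46, and pair D had 34 of 38 (49.6% of all genes), with a median of -0.38. Pair A had 28 of 38 (50.4% of all genes), with a median of -0.20. Pair E had 19 of 38 lower and 19 higher (49.8% of all genes lower), with a median of 0.02. A difference of at least 2-fold downward was seen for 5 genes in each of pairs B, C and D (5.30%, 1.47% and 4.41% of all genes) and for 0 in pairs A and E (1.89% and 0.815%). In all, 30 of 38 were lower in pairs B, C and D together (18.6% of all genes). With 1 library per population in a model, the difference between models in this contrast could not be tested.

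**Figure D3:**
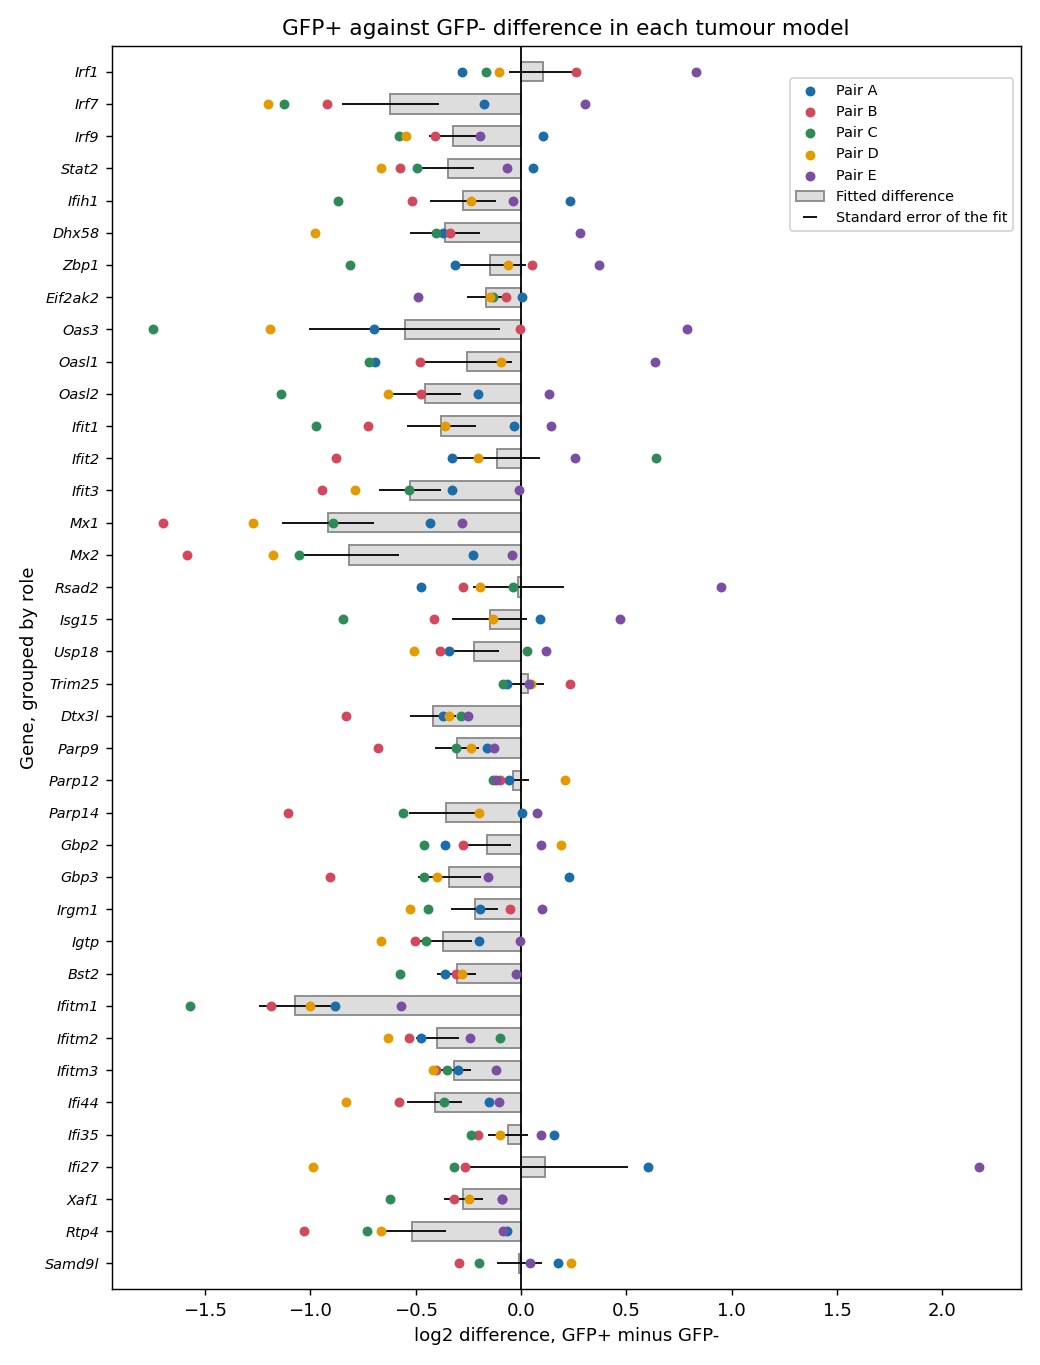
The log2 difference, GFP+ minus GFP-, of each of the 38 tested interferon-stimulated genes, in rows ordered by role; points are the 5 tumour pairs, the grey bar is the fitted difference and the black line its standard error. Most points of pairs B, C and D lie left of 0, and the points of pair E lie on both sides, with Ifi27 at 2.17.

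Among the transcription factors, Irf7, Irf9 and Stat2 had negative fitted differences and Irf1 a positive one. Irf7, which amplifies interferon production, had 54.1, 75.3, 10.6, 44.0 and 66.8 CPM in GFP+ cells of models A to E, against 60.0, 136, 23.0, 97.4 and 54.7 CPM in GFP- cells. It was lower in GFP+ cells of models A to D and higher in model E, and the ranges overlapped (log2 difference -0.62, SE 0.23, adjusted p = 0.486 by edgeR). Stat2, the ISGF3 subunit with a core match at 222 bases, had 139, 151, 38.2, 109 and 116 CPM in GFP+ cells, against 131, 215, 53.1, 167 and 122 CPM in GFP- cells. GFP+ cells had the lower level in 4 of 5 pairs, and model C was lowest in both populations (-0.35, SE 0.12, adjusted p = 0.479). Irf9, the DNA-binding subunit, had 60.5, 80.5, 32.0, 56.6 and 59.6 CPM in GFP+ cells, against 55.2, 102, 47.1, 79.7 and 68.9 CPM in GFP- cells. It too was lower in 4 of 5 pairs, with model A the exception (-0.32, SE 0.11, adjusted p = 0.470). A stretch of 2.28% of the Irf9 exons is shared with Rnf31 on the same strand, so a small part of its reads is uncertain. Irf1, a factor that drives the response to interferon gamma, was lower in GFP+ cells in pairs A, C and D and higher in pairs B and E, where the log2 differences were 0.26 and 0.83.

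The kinases Jak1 (0.03, SE 0.08) and Tyk2 (-0.07, SE 0.09) and the inhibitor Socs1 (-0.12, SE 0.16) had fitted log2 differences (GFP+ minus GFP-) within 1 standard error of 0. Stat3, a STAT of the interleukin-6 family of cytokines, stood at -0.16 (SE 0.10), and Jak2, a kinase of the interferon gamma receptor, at 0.07 (SE 0.07). Of the 12 relay and inhibitor genes, 6 had negative and 6 positive differences, with a median of 0.01, and 0 passed the test. Irf3, the factor that first induces interferon beta, was lower in GFP+ cells in 5 of 5 pairs by a small margin (-0.16, SE 0.07, adjusted p = 0.549), and it was 1 of 4 tested IRF genes outside the 40. Irf2 stood at -0.09 (SE 0.09), and Irf5 and Irf8, both under 2 CPM, at 0.42 (SE 0.36) and 0.62 (SE 0.64). The IRF2-binding proteins Irf2bp1 (-0.05, SE 0.07) and Irf2bp2 (-0.03, SE 0.13), which are not IRF genes, were within 1 standard error of 0.

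All 4 sensors had negative fitted differences, with a median of -0.22 (median of -0.61 in pair C), and 0 were at an unadjusted p under 0.05. Eif2ak2, the kinase PKR, which halts translation on double-stranded RNA, had 55.3, 78.9, 41.9, 60.2 and 41.9 CPM in GFP+ cells of models A to E, against 54.1, 79.2, 45.2, 64.3 and 59.4 CPM in GFP- cells. Populations differed little except in model E, where GFP+ cells were lower by a log2 difference of -0.49 (fitted -0.17, SE 0.09, adjusted p = 0.619). It is the one gene of the 38 tested whose most negative pair difference was in pair E. The helicase sensor Ifih1 (-0.28, SE 0.16), its relative Dhx58 (-0.36, SE 0.17) and the Z-nucleic acid sensor Zbp1 (-0.15, SE 0.17) also had negative values, each with at least 1 pair in the other direction. Of the 11 tested genes for nucleic acid sensing outside the 40, 8 had negative and 3 positive differences (median -0.13), and 0 passed the test. Those with the smallest p were the adaptor Myd88 (-0.21, SE 0.10), the RNA sensor Ddx58 (-0.19, SE 0.10), the ubiquitin ligase Trim56 (-0.20, SE 0.11) and the kinase Ikbke (-0.19, SE 0.14).

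In the oligoadenylate synthetase family, expression rested on the 2 Oasl genes. Oasl2 had 141, 282, 21.8, 157 and 112 CPM in GFP+ cells of models A to E, against 159, 374, 47.4, 234 and 103 CPM in GFP- cells. GFP+ cells were lower in models A to D and slightly higher in model E (-0.46, SE 0.17, adjusted p = 0.489). Oasl1, its neighbour on chromosome 5, showed the same signs by pair, with log2 differences of -0.69, -0.48, -0.72, -0.09 and 0.64 in pairs A to E. Oas3 had 0.0556, 3.41, 0.109, 0.877 and 0.724 CPM in GFP+ cells, against 0.154, 3.26, 0.605, 2.07 and 0.380 CPM in GFP- cells. At these few reads the difference was poorly determined (-0.55, SE 0.45).

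Among the IFIT, Mx and viperin effectors, Mx1 and Mx2 had the most negative fitted differences of all tested members after Ifitm1. Mx1, of a family of dynamin-like GTPases that block influenza and related viruses, had 20.7, 8.89, 5.43, 9.98 and 12.3 CPM in GFP+ cells of models A to E, against 27.3, 27.8, 10.02, 23.3 and 15.0 CPM in GFP- cells. Every pair had the lower level in GFP+ cells, with log2 differences from -0.28 in pair E to -1.70 in pair B, and the ranges overlapped (-0.92, SE 0.22, adjusted p = 0.363 by edgeR). Mx2, which lies beside it on chromosome 16 and is annotated as a polymorphic pseudogene, had 23.8, 17.6, 3.96, 10.7 and 16.7 CPM in GFP+ cells, against 27.3, 50.6, 8.20, 23.5 and 17.4 CPM in GFP- cells. GFP+ cells had the lower level in every pair, with log2 differences of -1.59, -1.05 and -1.18 in models B, C and D and of -0.23 and -0.04 in models A and E (fitted -0.82, SE 0.24, adjusted p = 0.416).

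IFIT proteins bind RNA that lacks the host's cap marks. Ifit3 had 28.3, 37.1, 4.34, 33.1 and 25.8 CPM in GFP+ cells of models A to E, against 35.0, 68.2, 6.22, 55.1 and 26.2 CPM in GFP- cells. It was lower in GFP+ cells in 5 of 5 pairs, by next to nothing in model E (-0.0074), and model C stood far below the others in both populations (-0.53, SE 0.15, adjusted p = 0.393). Its near copy Ifit3b, counted separately and with the same uncertainty, gave -0.45 (SE 0.17) and was also lower in 5 of 5 pairs. Ifit1, with 2 core matches close together, had 56.2, 88.4, 11.1, 59.4 and 83.8 CPM in GFP+ cells, against 56.5, 140, 21.6, 73.6 and 76.6 CPM in GFP- cells. GFP+ cells were lower in models B, C and D, about level in model A and higher in model E (-0.38, SE 0.16, adjusted p = 0.558). Ifit2 differed from Ifit1 and Ifit3 in model C, where GFP+ cells were higher by a log2 difference of 0.64 (fitted -0.11, SE 0.20). Rsad2, the radical SAM enzyme viperin, had 20.8, 10.4, 1.63, 18.6 and 21.8 CPM in GFP+ cells, against 28.5, 12, 1.65, 20.6 and 11.3 CPM in GFP- cells. It was lower in 4 pairs and higher by 0.95 in pair E, which left a fitted difference of -0.01 (SE 0.22).

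**Figure D4:**
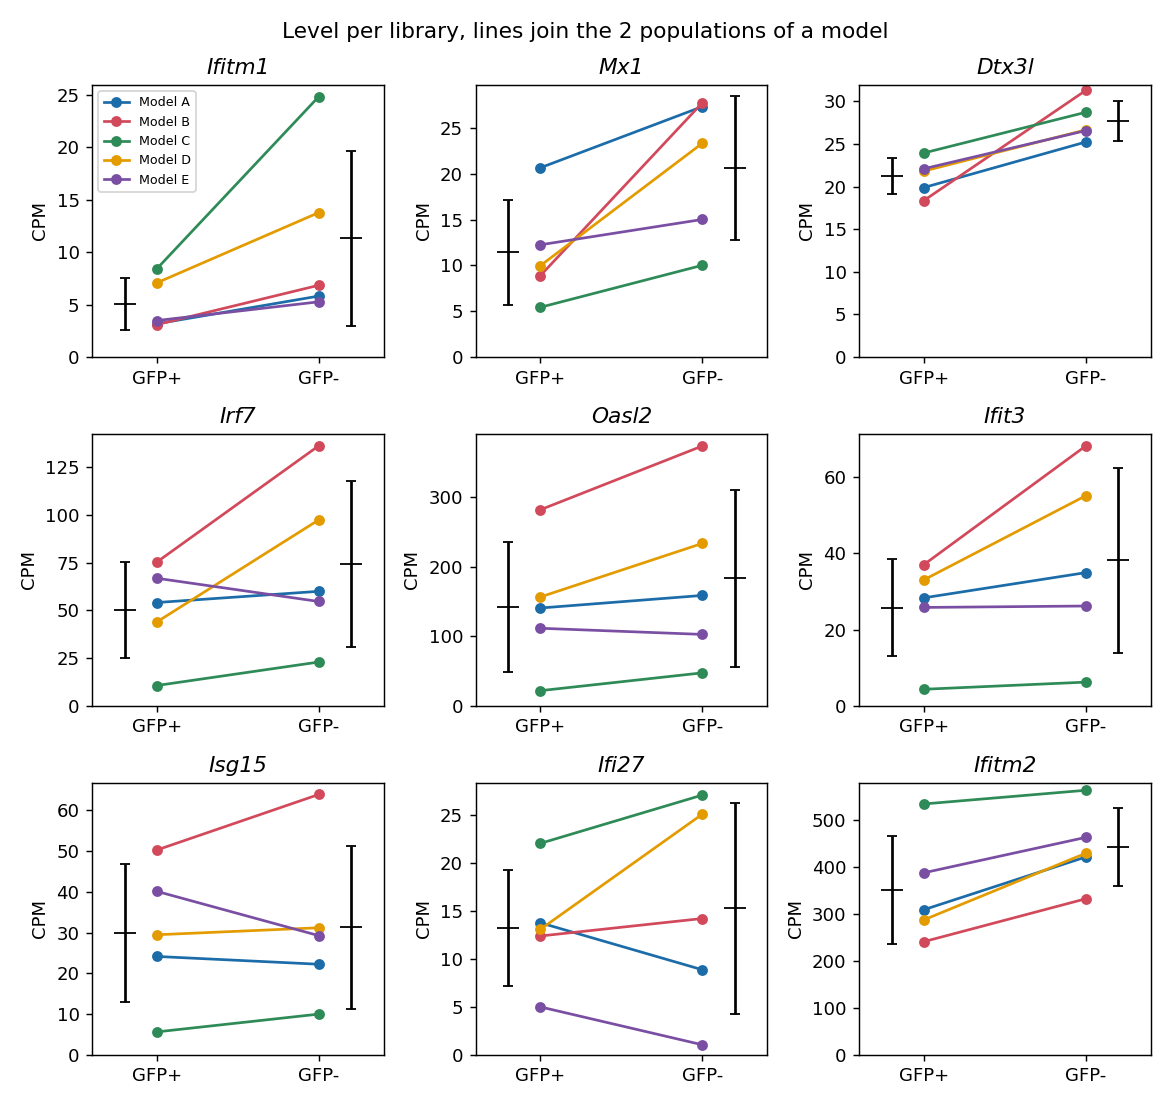
CPM of 9 interferon-stimulated genes in GFP+ (left) and GFP- cells (right); points are libraries, coloured lines join the libraries of a model, and black marks give the mean and SD of 5 libraries. Lines run upward to GFP- in all 5 models for Ifitm1, Mx1, Dtx3l, Ifit3 and Ifitm2, and the populations do not overlap for Dtx3l.

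Of the genes for the ubiquitin-like protein ISG15, other ubiquitin enzymes and poly(ADP-ribose) polymerases, Dtx3l and Parp9 had the smallest p. The 2 genes form a ligase and polymerase complex and lie head to head on chromosome 16. Dtx3l had 19.9, 18.4, 24.0, 21.8 and 22.1 CPM in GFP+ cells of models A to E, against 25.2, 31.3, 28.7, 26.7 and 26.6 CPM in GFP- cells. Every GFP+ library was below every GFP- library, which held for 1 of the 38 genes and 0.0572% of all genes (-0.42, SE 0.11, adjusted p = 0.379). Parp9 had 24.9, 26.6, 23.5, 29.0 and 27.4 CPM in GFP+ cells, against 27.3, 40.7, 28.6, 32.9 and 30.2 CPM in GFP- cells. GFP+ cells had the lower level in every pair, with a narrow overlap, most of all in model B (-0.30, SE 0.10, adjusted p = 0.468). Their exons overlap on opposite strands over 8.0% of Dtx3l and 9.40% of Parp9, and counts taken without regard to strand gave -0.42 and -0.28.

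Isg15 itself, whose promoter has 3 overlapping core matches, had log2 differences of 0.09, -0.41, -0.84, -0.13 and 0.47 in pairs A to E, so that the fitted difference was -0.15 (SE 0.18). Its protease Usp18, which also dampens receptor signalling, stood at -0.22 (SE 0.12), Parp14 at -0.36 (SE 0.17) and Parp12 at -0.04 (SE 0.08). Trim25, a ligase that activates RNA sensing, had 104, 118, 63.1, 95.9 and 99.6 CPM in GFP+ cells, against 107, 96.1, 65.8, 89.4 and 97.8 CPM in GFP- cells. The populations were close in every model, with model B highest in GFP+ cells.

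The interferon-inducible GTPases, which attack the vacuoles of intracellular pathogens, all had negative fitted differences. Gbp2 had 77.9, 83.1, 34.7, 122 and 81.4 CPM in GFP+ cells of models A to E, against 98.1, 96.0, 47.0, 103 and 76.8 CPM in GFP- cells. GFP+ cells were lower in models A, B and C and higher in models D and E (-0.16, SE 0.11, adjusted p = 0.714). Gbp3 stood at -0.34 (SE 0.15), Irgm1 at -0.22 (SE 0.11) and Igtp at -0.37 (SE 0.14). Igtp was lower in 5 of 5 pairs, from -0.0038 in pair E to -0.67 in pair D, but 8.01% of its exons are shared with Irgm2 on the same strand. Irgm2 gave -0.32 (SE 0.15) in its own right.

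The membrane restriction factors were the one role group in which all 4 genes had the lower level in GFP+ cells of every pair. Ifitm1, an entry inhibitor at the cell surface, had 3.17, 3.09, 8.42, 7.07 and 3.47 CPM in GFP+ cells of models A to E, against 5.81, 6.84, 24.8, 13.8 and 5.26 CPM in GFP- cells. The GFP+ library was the lower in each model, by -0.57 in pair E to -1.57 in pair C, while the ranges overlapped because models C and D were high in both populations (-1.07, SE 0.17, adjusted p = 0.230 by edgeR). Ifitm2 had 309, 241, 534, 287 and 387 CPM in GFP+ cells, against 421, 332, 563, 429 and 463 CPM in GFP- cells. Its difference was smallest in model C, at -0.10 (fitted -0.40, SE 0.10, adjusted p = 0.379). Ifitm3 had 186, 179, 288, 180 and 185 CPM in GFP+ cells, against 224, 226, 361, 232 and 203 CPM in GFP- cells. Here the pairs were close together, from -0.12 in pair E to -0.42 in pair D (fitted -0.32, SE 0.08, adjusted p = 0.366). Bst2, the tetherin that holds budding virions on the cell, had 34.1, 57.5, 12.4, 57 and 38.4 CPM in GFP+ cells, against 42.9, 67.9, 18.3, 66.8 and 39.4 CPM in GFP- cells. Model C was lowest in both populations, and model E showed almost no difference, at -0.02 (-0.31, SE 0.09, adjusted p = 0.431).

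Of the other induced genes, Rtp4, Ifi44 and Xaf1 had the lower level in GFP+ cells of every pair. Rtp4, a receptor transporter that is also an antiviral factor, had 20.7, 25.7, 7.98, 20.9 and 23.3 CPM in GFP+ cells of models A to E, against 21.3, 50.3, 13.1, 32.0 and 24.9 CPM in GFP- cells. The difference lay in models B, C and D, and models A and E were within a log2 of 0.1 (-0.52, SE 0.16, adjusted p = 0.443). Ifi44 had 26.3, 28.6, 2.72, 16.5 and 24.1 CPM in GFP+ cells, against 28.6, 40.9, 3.47, 28.3 and 26.1 CPM in GFP- cells. Model C was far below the rest in both populations (-0.41, SE 0.13, adjusted p = 0.456). Xaf1, a binding partner of the apoptosis inhibitor XIAP, had 63.4, 149, 36.0, 93.0 and 53.5 CPM in GFP+ cells, against 66.2, 178, 54.5, 106 and 57.5 CPM in GFP- cells, with model B high and model C low in GFP+ cells (-0.27, SE 0.09, adjusted p = 0.470).

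Ifi27, an interferon-alpha-induced gene, had the widest spread of pair differences. Its levels were 13.7, 12.4, 22, 13.1 and 4.97 CPM in GFP+ cells of models A to E, against 8.84, 14.2, 27.0, 25.0 and 1.03 CPM in GFP- cells. GFP+ cells were higher in models A and E and lower in models B, C and D, and the pair differences ran from -0.99 to 2.17 (fitted 0.11, SE 0.39). Ifi35 stood at -0.06 (SE 0.10) and Samd9l at -0.01 (SE 0.11). Of the Ifi35 exons, 16.8% lie opposite Gm11626.

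The levels also differed between the tumour models. Model levels are means of the log2 CPM of a model's 2 libraries. The 2 libraries of a model are not independent, so the following is a description with no test. The highest and the lowest model differed by at least 4-fold for 14 of the 38 genes (36.8%), against 18.0% of all genes, and by at least 2-fold for 30 of 38, against 46.6% of all genes. Model C was the lowest for 27 of 38 (71.1%, against 26.5% of all genes), and model B the highest for 22 of 38 (20.7% of all genes). The fibroblast and pericyte markers were also lowest in model C for 7 of 9 (77.8%), and their part in this was not tested. Both libraries of model C were below the 8 others for 22 of 38 (14.5% of all genes). Without model C, 2 genes reached 4-fold, Oas3 and Ifi27 (11.9% of all genes reached it). The largest folds between models were 16.7 for Oas3, 13.8 for Rsad2, 10.7 for Ifi44, 9.99 for Ifi27, 9.97 for Oasl2 and 9.41 for Ifit3, and the smallest were 1.19 for Dtx3l and 1.27 for Parp9.

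Not every gene followed the low level of model C. Both libraries of model C were above the 8 others for Ifitm2, Ifitm3 and Ifi35 (16.9% of all genes showed this), and Ifitm1 was also highest in model C. Parp14, Dtx3l and Ifi27 were highest there as well. So the Ifitm genes were highest in the model in which the IFIT, Mx and Oasl genes were lowest, while in the comparison of GFP+ with GFP- cells the 3 Ifitm genes were lower in every pair. Ifitm2, Ifitm1 and Ifitm3 lie within chr7:140954837-141010770, and Irf7, which was lowest in model C, lies beyond them at chr7:141262706-141266481 (GENCODE vM21, GRCm38).

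**Figure D5:**
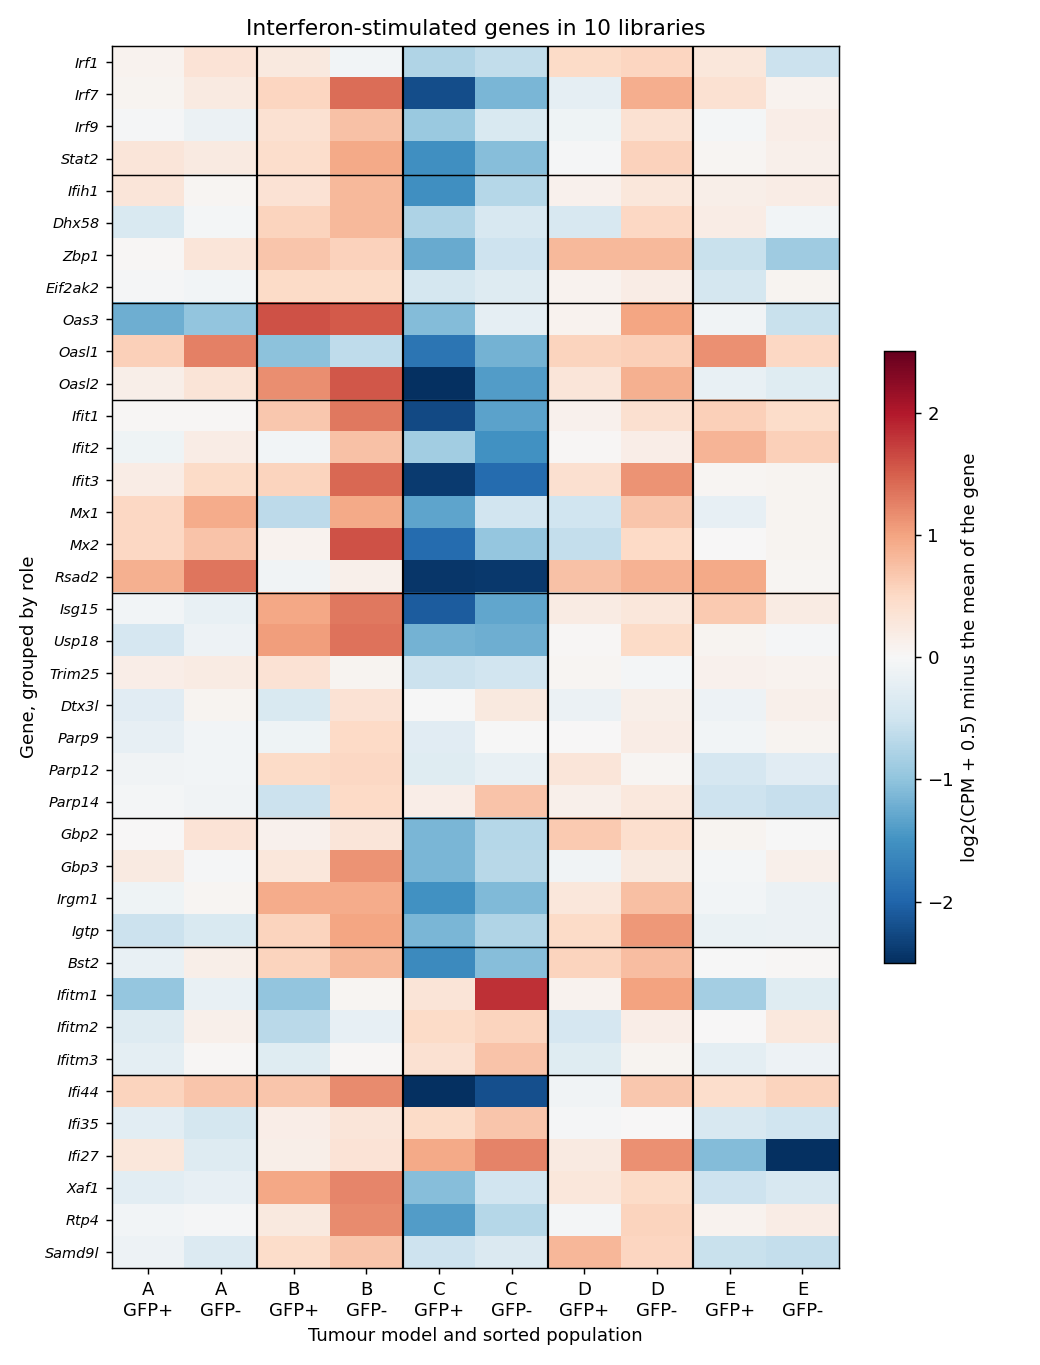
Each row is 1 of the 38 tested interferon-stimulated genes, ordered by role, and each column 1 library, with GFP+ left of GFP- within each model; colour is log2(CPM + 0.5) minus the mean of the gene over the 10 libraries. The columns of model C are blue for 27 of the genes, whose lowest model it is, and red for genes that include Ifitm1, Ifitm2, Ifitm3, Ifi35 and Ifi27.

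Across the 10 libraries most of the genes varied together. The Pearson correlation of a gene's log2 CPM with the mean of the other members had a median of 0.825 over the 38 genes and was at least 0.8 for 20 of them, while 4.93% of all other genes reached 0.8 with the member mean. The libraries are 5 pairs from 5 tumour models, so these values largely follow the models. Rtp4 (r = 0.967), Oasl2 (r = 0.958) and Irf7 (r = 0.956) tracked the rest most closely. Below 0 were Ifitm2 (r = -0.53), Ifitm3 (r = -0.46), Ifi35 (r = -0.27), Ifitm1 (r = -0.18), Ifi27 (r = -0.10) and Parp14 (r = -0.02). The genes outside the 40 with the highest correlation with the member mean over the 10 libraries were Ifi203 (r = 0.98), Gm4951 (r = 0.975), Gpr176 (r = 0.974), Iigp1 (r = 0.967), Bhlhe41 (r = 0.966), Rdh5 (r = 0.964), Svep1 (r = 0.964) and Mospd3 (r = 0.962). Of these, at least Ifi203 and Iigp1 are themselves induced by interferon. The 5 pair differences of each member were also correlated with the mean pair differences of the other members. These correlations ran from -0.70 for Eif2ak2 to 0.96 for Irf7, so counts of members are not counts of independent results.

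A longer list of 55 further interferon-stimulated genes, of which 41 were tested, gave 31 negative and 10 positive differences, with a median of -0.22. None passed the test by edgeR, and 7 were lower at an unadjusted p under 0.05 (17.1%, against 3.49% of all genes) with 0 higher (5.50% of all genes). The genes with the smallest p were the exonuclease Isg20 (-0.44, SE 0.14), Tor3a (-0.25, SE 0.08), the GTPase Iigp1 (-0.86, SE 0.29) and Oas1c (-0.66, SE 0.22). Iigp1 had 15.2, 22.3, 1.58, 28.8 and 10.1 CPM in GFP+ cells of models A to E, against 15.1, 68.2, 3.69, 73.3 and 9.98 CPM in GFP- cells. Its pair differences were -1.68, -1.20 and -1.40 in models B, C and D and -0.02 and 0.04 in models A and E, with overlapping ranges. By pair, 17 of the 41 had the lower level in GFP+ cells in pair A (41.5%), 34 in pair B (82.9%), 38 in pair C (92.7%), 30 in pair D (73.2%) and 10 in pair E (24.4%), where 47.4% to 51.3% of all genes did in each pair.

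Returning to the promoters, the 15 tested genes with a core match in the window all had negative fitted differences, with a median of -0.32. Of the 14 tested genes with a window and no match, 12 did, with a median of -0.26. Among tested genes outside the 40, 56.8% of the 366 with a core match had negative differences (median -0.03), against 51.6% of the 10376 with a window (median -0.0058). Only the 40 were left out, so the 366 can hold other interferon-stimulated genes, and the 10376 include the 366. Ifitm1, whose printed upstream stretch holds no match, had the most negative fitted difference of the 38, at -1.07. The bases before its earlier GENCODE start were not searched. Isg15, with 3 overlapping matches, stood at -0.15.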

How the data were processed

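The submitters' processing notes name STAR 2.4.2.8 and mouse build mm10; no source used here names the annotation or library kit. The authors deposited raw, unnormalized counts per gene, in the layout of STAR's gene counts (1 column ignoring strand, 1 for each strand setting). Column 4, the second strand setting, was analysed because 96.9% to 97.1% of stranded gene reads fell there. The 4 summary lines (21.3% to 24.3% of reads) were dropped. Multiply mapped reads (5.99% to 9.74%) are not counted to genes, so near copies such as Ifit3 and Ifit3b are uncertain. GENCODE vM21, built on the same assembly, gave symbols for 46005 of 46517 identifiers.

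The main test was the quasi-likelihood test of edgeR 4.0.16 in R 4.3.3, two-sided, with TMM scaling, filterByExpr (which kept 13986 genes), a block for the tumour model and Benjamini-Hochberg adjustment at 0.05. The letters pair libraries of 1 tumour model, and paired libraries deviated together (correlations of 0.628 to 0.867). Standard errors come from the F statistic. Pair differences and model levels are on log2 CPM (prior count 2), and TPM was computed from union exon length. Alternatives were DESeq2 1.42.0, voom with quality weights (limma 3.58.1), RLE factors, library totals, no filter, at least 1 CPM in 5 libraries, no block, unstranded counts, a prior count of 0.5, a 2-fold threshold or 1 population alone for the fold between models, and leaving out each pair. The pipeline was tested on simulated counts.

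The 40 genes and all lists were chosen with earlier results of these data known. Per-library values are given for the 12 members with the smallest p, the member with the highest mean CPM of each role group and the 6 with the largest range between models. Up to 4 genes of each other list are named by smallest p, along with Jak1, Tyk2, Ifnar1, Ifnar2, Ifit3b, Irgm2, Ptprc, Pecam1 and Sox10; 1 other gene of that rule is not reported here. Irf7, Oas1a and Oas2 are shown in full beyond that rule, chosen after their values were seen, as were Cd14 and Flt3.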

Additional observations from a re-analysis of the deposited data

Results flagged for a closer look

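Each gene's CPM within a population and its 5 pair differences were searched for a library or pair lying far from the other 4. Of 116 sets searched, 8 held one. The rule has a nominal rate of 1 in 20, which need not hold for sets that share the same libraries. Model C gave 4 of the 8. In GFP+ cells it was low for Ifih1 (9.88 CPM) and for Rtp4 (7.98 CPM). It was high for Ifitm3 in both populations, with 288 CPM in the GFP+ library and 361 CPM in the GFP- library. Oas3 was high in GFP+ cells of model B (3.41 CPM), and Oas2 was high in GFP- cells of model D (4.19 CPM). The pair difference of Dtx3l was lowest in pair B (-0.83), and that of Parp12 was highest in pair D (0.21).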

How the results depend on the processing

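Where edgeR called 0 genes and 0 members, DESeq2 called 190 and 3, and edgeR without a filter on low counts called 47 and 1 (Ifitm1, adjusted p = 0.0361, with 0.000409 to 1.0 over its alternatives). The number of members with a negative difference ran from 33 of 38 (without pair B, and with library totals) to 39 of 40 (without pair E), and their median from -0.40 to -0.26 over the settings run, leaving out each pair included. Scaling by library totals moved the median of all genes to 0.03 and that of the members to -0.28. Without the replicate block 0 genes were called, 36 of 38 members were negative, and 4 of 38 members were at an unadjusted p under 0.05 (1.36% of all genes were). Genes at least 4-fold apart between models numbered 14; a 2-fold threshold gave 30, and leaving out a model gave 2 to 14, the 2 without model C.

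Over the settings run, signs turned for 7 genes of small fitted difference. Library totals gave 0.0211 for Rsad2 and 0.0247 for Samd9l, limma voom gave 0.0609 for Rsad2 and -0.1708 for Ifi27, and the fit with no replicate block gave -0.2401 for Ifi27. Leaving out each pair gave ranges that crossed 0 for Rsad2 (-0.2865 to 0.1164), Ifi27 (-0.2668 to 0.4245), Ifit2 (-0.2886 to 0.0814), Trim25 (-0.0161 to 0.0611), Samd9l (-0.0699 to 0.0682), Zbp1 (-0.2862 to 0.0059) and Irf1 (-0.0879 to 0.1977). The causes were not tested. Apart from Ifitm1, Mx1 and Ifitm2, no member passed an adjusted p of 0.05 under any setting run. Oas1a, Oas2 and Oas3 rest on few reads, which limits what their values can show.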
